A study of Capra hircus with 90 samples.

Results

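The solitary tract nucleus (NTS) was compared between goats that breathed 6% CO2 for 7 d and goats kept in room air for 7 d, each group with 6 libraries, so that 12 of the 90 libraries of the study are described here. The libraries were chosen by the site and exposure in their titles. Brainstem tissue came from adult outbred female goats of at least 2 years, of Alpine, Saanen, Toggenburg and other stock, assigned at random to 5 exposures of 6 goats: 24 h of room air, 3 h of CO2, 24 h of CO2, 7 d of room air and 7 d of CO2. From each exposure the NTS, the ventral respiratory column (VRC) and the retrotrapezoid nucleus (RTN) were taken as punches of frozen tissue, the NTS from 0 to 2 mm rostral to the obex. Both 7 d groups were extracted and sequenced in the second batch and the 3 shorter exposures in the first. The contrast of 7 d CO2 with 7 d room air therefore lies within a batch, and any contrast of 7 d with 24 h crosses batches. The labels name no other agent or allele in either group. The goats of the 2 groups are different animals, and breed was not given per library.

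The NTS is the first brainstem relay for afferents of the arterial chemoreceptors, the baroreceptors and the lungs, and it holds cells that themselves respond to CO2 and pH. Breathing CO2 raises arterial CO2 and lowers the pH of blood and brain fluid. Ventilation rises within minutes, and over days the kidneys and the choroid plexus restore part of the bicarbonate balance. Carbon dioxide also dilates brain vessels, so endothelial genes are a class of interest in such tissue. The comparison asks which NTS transcripts differ between goats after 7 d of CO2 and goats after 7 d of room air.

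Totals were 28.3 ± 3.13 M counts in room air and 26.0 ± 5.6 M after CO2 (SD, n = 6), and did not separate the groups (two-sided exact permutation test, p = 0.403; smallest p attainable 0.00216). Genes with at least 1 count numbered 17739 to 17889 in the room-air libraries and 17605 to 18105 in the CO2 libraries (p = 0.658 by the same exact test). Each library correlated with the others at a median between 0.964 and 0.976. On the first principal component (22.7% of the variance) room-air library 6 lay at one end and room-air library 3 at the other, with all CO2 libraries between them. Of the 11 genes listed as NTS and dorsal medulla markers, 1, the neuropeptide gene NPFF, could be tied to a row of the count table. The site label was therefore not checked against its defining markers, and NPFF itself lay between 0.204 and 2.35 CPM. CPM are TMM-normalised counts, scaled to library size. Tissue was not sorted, so fewer cells of a type and less RNA per cell cannot be told apart.

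After 7 d of CO2, 1 of 15311 genes tested (0.00653%) passed an adjusted p of 0.05, with edgeR's quasi-likelihood test and Benjamini-Hochberg adjustment. That gene was MAN2B1, the lysosomal alpha-mannosidase that trims mannose from glycoproteins during their breakdown. At an unadjusted p under 0.05 stood 1228 genes (8.02%), 588 with a higher mean after CO2 (3.84%) and 640 with a lower one (4.18%). DESeq2 called 70 of 16359 genes (0.428%) from the same counts. The median log2 difference over all genes was -0.01 and the median standard error (SE) 0.15. The lowest and highest library of the 2 groups left a gap between the groups in 66 genes (0.431%), 30 with CO2 above and 36 with CO2 below room air.

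**Figure D1:**
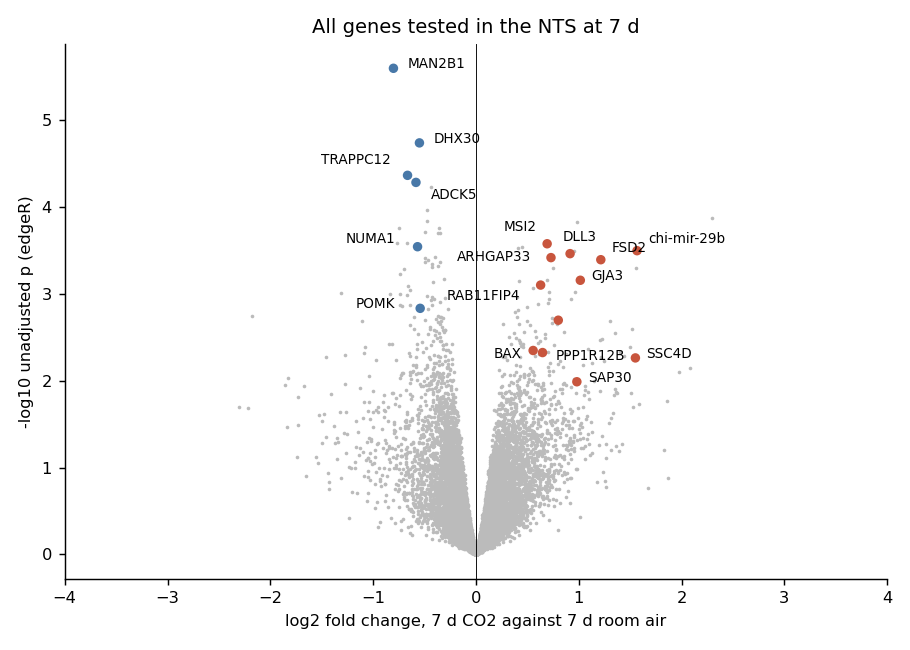
Each point is 1 of the 15311 genes tested in the NTS at 7 d, with its log2 fold change (CO2 against room air) on the horizontal axis and -log10 of its unadjusted p on the vertical axis. Coloured points are MAN2B1 and the other tested genes of the authors' table for this comparison, red where higher and blue where lower after CO2. MAN2B1 stands above the rest and is the 1 gene past the adjusted threshold.

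MAN2B1 fell. Its level in room-air libraries 1 to 6 was 97.2, 143, 109, 128, 133 and 106 CPM, and in CO2 libraries 1 to 6 it was 84.4, 64.7, 65.1, 70.5, 65.5 and 60.4 CPM. All CO2 libraries lay below all room-air libraries, and CO2 library 1 was the closest to them. The mean went from 119.3 ± 17.9 to 68.4 ± 8.44 CPM (SD, n = 6), a log2 fold change of -0.80 with an SE of 0.11 and a 95% interval of -1.04 to -0.57 (edgeR adjusted p = 0.0389). The size held when any 1 library was left out, at -0.87 to -0.75, but the call was lost in 8 of 12 such fits: without room-air library 2, 4 or 5 and without CO2 library 2, 3, 4, 5 or 6. The adjusted p over those 12 fits ranged from 0.0169 to 0.225.

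Set among the 15 groups of the study, the 7 d room-air NTS had the highest mean MAN2B1 level and the 7 d CO2 NTS the next to lowest. The next highest group after 119.3 CPM was the RTN after 24 h of CO2, at 91.4 ± 14.9 CPM, and the lowest was the VRC after 3 h of CO2, at 68.2 ± 9.34 CPM. In the first batch the NTS stood at 74.0 ± 15.6 CPM after 24 h of room air, 75.7 ± 9.1 after 3 h of CO2 and 77.6 ± 11.3 after 24 h of CO2. The level after 7 d of CO2 was thus close to the first-batch NTS levels, and the 7 d room-air level was the one that stood away from them. Duration and batch cannot be told apart in that last comparison. At the VRC of the 7 d goats the MAN2B1 difference was -0.07 on the log2 scale and at the RTN -0.04.

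**Figure D2:**
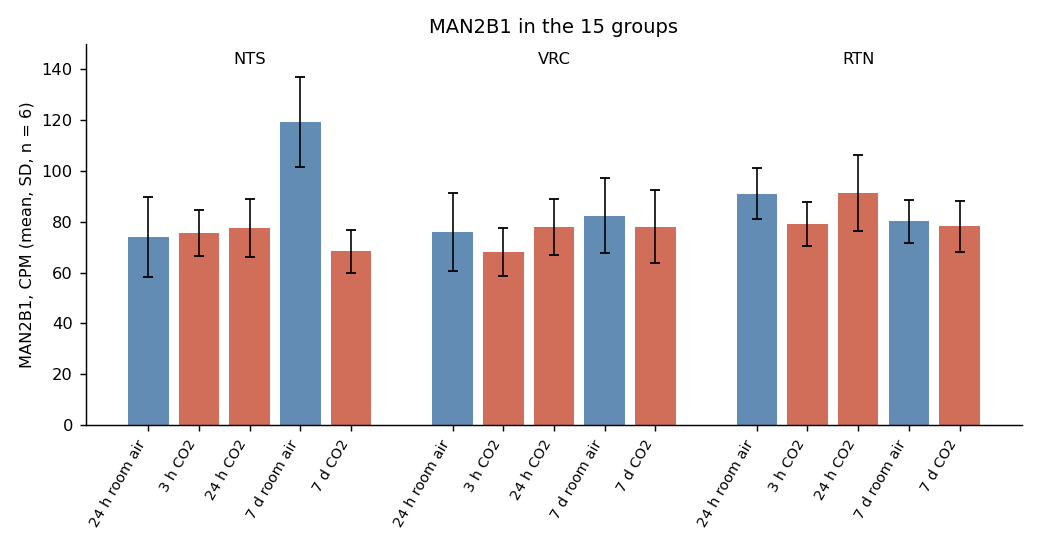
Bars give the mean MAN2B1 level (CPM, linear axis from 0) of the 6 libraries in each of 15 groups, blue for room air and red for CO2, and error bars are SD. The bar for 7 d of room air in the NTS, at 119.3 CPM, is the tallest of the 15, and the bar for 7 d of CO2 beside it stands at 68.4 CPM.

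For this comparison the authors' deposited table lists 22 genes, 14 higher and 8 lower, given as 19 symbols and 3 identifiers. It was drawn from these libraries, so the list is not independent evidence of its direction. It comes from a likelihood ratio test over all 90 libraries: repeated here, that test called 34 of 17730 genes (0.192%), of which 22 (0.124%) had an absolute log2 change of at least 0.5, the smallest in the deposited tables being 0.501. In the fit of the 12 libraries 18 of the 22 passed the filter on low counts, 12 with a higher mean and 6 with a lower one, and 1 of the 18, MAN2B1, was past the threshold. The second-lowest adjusted p over all genes was 0.141. In 8 of the 18 the 2 groups did not overlap, against 0.431% of all genes tested. The 18 were listed for a difference between these groups, so that share is partly fixed by the choice.

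Among the listed genes with lower levels, DHX30 encodes an RNA helicase that takes part in the assembly of mitochondrial ribosomes. It stood at 211, 202, 171, 208, 162 and 186 CPM in room-air libraries 1 to 6 and at 136, 133, 119, 147, 123 and 120.3 CPM in CO2 libraries 1 to 6. The groups did not overlap, and the log2 difference was -0.55 (SE 0.09; edgeR adjusted p = 0.141). TRAPPC12, a subunit of the TRAPPIII complex that tethers transport vesicles, ranged from 33.4 to 47.3 CPM in room air (median 41.4) and from 21.1 to 28.0 CPM after CO2 (median 27.0). Its groups also left a gap, with a log2 difference of -0.67 (SE 0.12; adjusted p = 0.181). ADCK5, a predicted kinase of the ADCK family, ranged from 34.9 to 49.4 CPM in room air and from 25.4 to 34.2 CPM after CO2, again without overlap (log2 difference -0.58, SE 0.11; adjusted p = 0.181).

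NUMA1, which organises the spindle poles of dividing cells, and POMK, a kinase of the sugar chain on dystroglycan, complete the listed genes with lower means. NUMA1 had a room-air range of 92.5 to 154 CPM and a CO2 range of 69.4 to 94.1 CPM, so that the highest CO2 library, number 3, passed the lowest room-air library, number 5. POMK stood at 26.9 to 52.3 CPM in room air and at 21.4 to 27.4 CPM after CO2, where room-air library 2 was far above its group. The log2 differences were -0.57 (SE 0.12) for NUMA1 and -0.54 (SE 0.14) for POMK, with edgeR adjusted p-values of 0.218 and 0.321.

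On the higher side, MSI2 encodes a Musashi protein that binds messenger RNA and is known from progenitor cells. Its level in room-air libraries 1 to 6 was 39.6, 47.7, 56.2, 32.6, 41.6 and 31.9 CPM, against 74.2, 51.4, 78.2, 65.2, 57.9 and 76.7 CPM after CO2. Room-air library 3 exceeded CO2 library 2, and otherwise the groups were apart. The log2 difference was 0.69 (SE 0.15; edgeR adjusted p = 0.218). DLL3, an inhibitory ligand of the Notch pathway, ran from 2.6 to 5.94 CPM in room air and from 6.45 to 10.8 CPM after CO2, without overlap (log2 difference 0.92, SE 0.20; adjusted p = 0.218). ARHGAP33, a GTPase-activating protein, was tightly grouped in room air, at 4.53 to 5.46 CPM, and spread from 6.0 to 11.03 CPM after CO2 (log2 difference 0.73, SE 0.16; adjusted p = 0.218).

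GJA3, a connexin of gap junctions, had the groups apart at 1.12 to 2.15 CPM and 2.28 to 5.11 CPM. FSD2, a protein with fibronectin type III and SPRY domains, ranged from 0.833 to 1.34 CPM in room air and from 1.3 to 3.8 CPM after CO2. RAB11FIP4, an effector of the recycling GTPase Rab11, ranged from 11.6 to 23.3 CPM and from 21.4 to 29.2 CPM. In FSD2 CO2 library 2 lay within the room-air range, and in RAB11FIP4 room-air library 2 lay within the CO2 range. Their log2 differences were 1.01 (SE 0.24) for GJA3, 1.21 (SE 0.27) for FSD2 and 0.63 (SE 0.15) for RAB11FIP4, and none of the 3 passed, with edgeR adjusted p between 0.218 and 0.276.

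**Figure D3:**
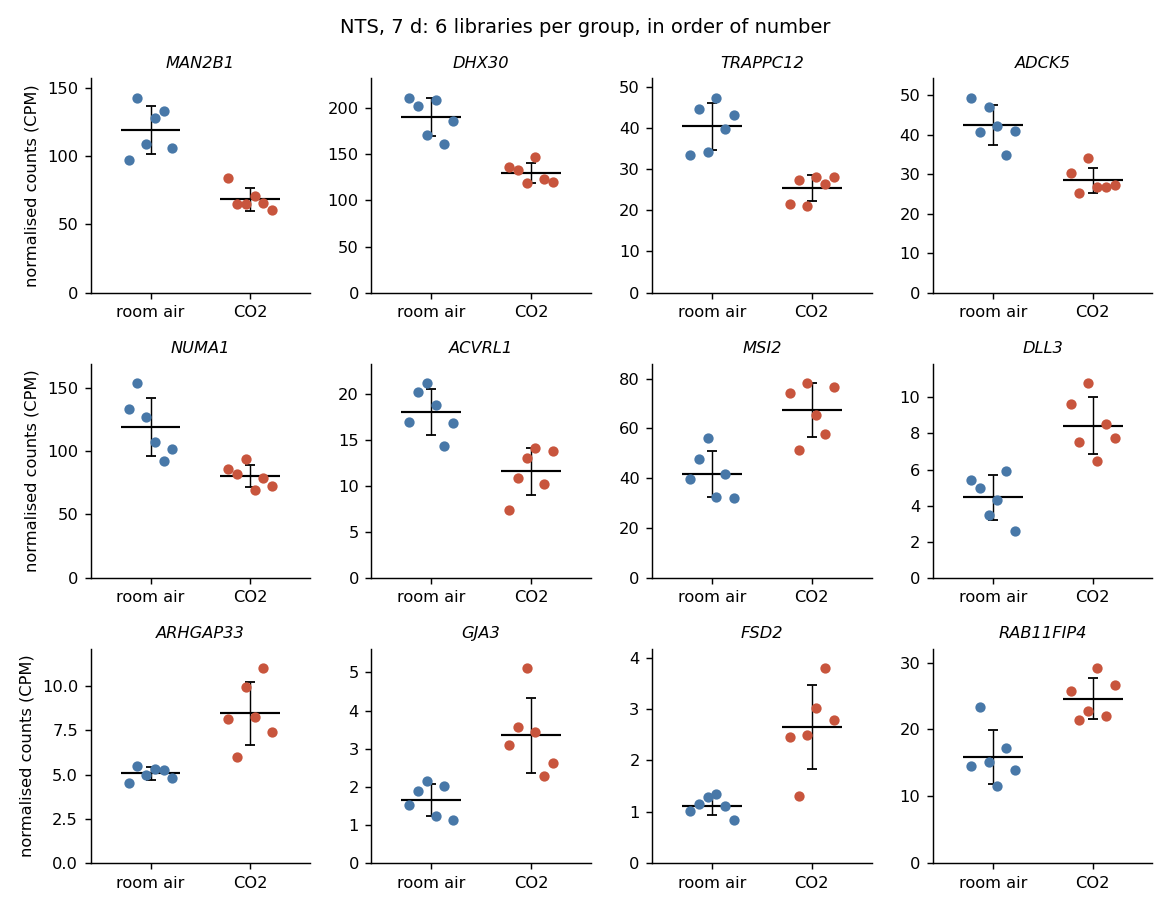
Points are the 6 libraries of each group in order of their number, with level in CPM on linear axes from 0, for 12 genes named in the text; the horizontal bar is the mean and the error bar the SD. In MAN2B1, DHX30, TRAPPC12, ADCK5 and ACVRL1 every CO2 library is below every room-air library, and in DLL3, ARHGAP33 and GJA3 every CO2 library is above.

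BAX, which opens the mitochondrial outer membrane in apoptosis, stood at 16.5, 13.9, 22.1, 13.0, 21.4 and 10.1 CPM in room-air libraries 1 to 6 and at 21.9 to 26.6 CPM after CO2. The CO2 libraries were close together and the room-air libraries were spread, with numbers 3 and 5 near the CO2 level. SAP30, a subunit of the Sin3 corepressor, also had spread room-air libraries. Numbers 2, 3 and 5 were at 6.03 to 8.92 CPM and the others at 1.8 to 3.12 CPM. Its CO2 libraries were at 5.4 to 11.1 CPM. PPP1R12B, a regulatory subunit of myosin phosphatase, was at 7.95 to 17.5 CPM and 15.7 to 20.8 CPM. These 3 overlapped between groups, with log2 differences of 0.56, 0.98 and 0.65 and edgeR adjusted p-values of 0.436, 0.525 and 0.443. The unnamed gene ENSCHIG00000001086 was at 6.09 to 9.12 CPM in 5 room-air libraries, at 16.7 CPM in room-air library 3, and at 13.2 to 19.5 CPM after CO2 (log2 difference 0.80; adjusted p = 0.353). Without room-air library 3 that difference was 1.06 and passed the threshold.

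Some listed genes are rare in these libraries. The microRNA gene chi-mir-29b ranged from 0.101 to 0.393 CPM in room air and from 0.523 to 0.864 CPM after CO2, without overlap (log2 difference 1.57, SE 0.35; edgeR adjusted p = 0.218). These are reads at the gene in libraries that do not mark strand, and the mature microRNA was not measured. SSC4D, a scavenger receptor cysteine-rich protein, stood at 0.0641 to 0.572 CPM and 0.478 to 1.64 CPM, with overlap (adjusted p = 0.453). A further 4 listed genes did not pass the filter on low counts. CPA3, a carboxypeptidase of mast cell granules, had 0 counts in all 6 room-air libraries and 29 counts in 5 of 6 CO2 libraries, 13 of them in 1 library. Against a floor of 3 counts over the room-air group it was at least 10.5-fold higher after CO2, on totals of counts. EFCAB12 had 2 counts in room air and 48 after CO2. ENSCHIG00000002189 had 139 and 12. Of the 503 room-air counts of ENSCHIG00000013914, 497 came from library 6, against 17 counts after CO2. For that last gene a single library makes the difference.

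The position of the 7 d room-air group among the 15 groups was examined for all 18 tested genes of the list after MAN2B1 had been seen. The room-air NTS group had the highest or the lowest mean of the 15 in 16 of the 18 genes, and the 7 d CO2 NTS group in 9 of the 18, with 7 genes counted in both. Over all genes tested the shares were 14.3% and 12.6%. Among the 66 genes whose 2 groups do not overlap they were 37.9% and 31.8%. In MSI2, ARHGAP33, SAP30, PPP1R12B, RAB11FIP4 and ENSCHIG00000001086 the room-air group was lowest and the CO2 group was not highest. In DLL3 and GJA3 the CO2 group was highest and the room-air group was not lowest. The genes were listed for a difference between these 2 groups, so an extreme mean in 1 of them is partly fixed by that choice.

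The effect in the NTS was then set against that at the other sites of the same 7 d goats. At the VRC 0 of 15179 genes passed, with 996 at an unadjusted p under 0.05 (6.56%), and at the RTN 0 of 15326, with 499 (3.26%). In the fit of all 36 libraries of the 7 d groups without a term for the replicate number, 0 of 16050 genes had an NTS effect that differed from the VRC effect (1255, 7.82%, at an unadjusted p under 0.05; DESeq2 0) and 0 one that differed from the RTN effect (858, 5.35%; DESeq2 3). The labels do not say that a number marks the same goat at each site. Residuals of same-numbered libraries correlated between the NTS and the other sites at over 0.1 in every pair, and best with their own number in 6 of 6 pairs, or 5 of 6 for the NTS with the RTN in room air, and on that basis the number was taken as the goat. With the number as a block, 17 genes (0.106%) differed between NTS and VRC and 7 (0.0436%) between NTS and RTN, and these calls rest on that pairing.

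MAN2B1 was among the genes that passed with the number as a block at both sites, with an NTS minus VRC difference of -0.73 (SE 0.13; edgeR adjusted p = 0.0114) and an NTS minus RTN difference of -0.76 (SE 0.13; adjusted p = 0.013). TRAPPC12 passed at both too, at -0.63 (adjusted p = 0.0139) and -0.66 (0.013). DHX30 passed against the RTN, at -0.64 (0.013), and was at -0.43 against the VRC (0.0828). In the VRC, DHX30 stood at 131 to 184 CPM in room air and at 109 to 172 CPM after CO2, and in the RTN at 145 to 166 CPM and 133 to 194 CPM. Both pairs of ranges overlapped, unlike those of the NTS.

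Of the genes with higher levels, MSI2 (0.93, SE 0.16; edgeR adjusted p = 0.0114), ENSCHIG00000001086 (0.99; 0.0114), BAX (1.01, SE 0.18; 0.0139) and ARHGAP33 (0.78, SE 0.16; 0.0439) differed from the VRC effect with the number as a block. None of these 4 passed against the RTN, where adjusted p lay between 0.0793 and 0.287. MSI2 in the VRC was at 53.2 to 83.4 CPM in room air and at 46.6 to 62.6 CPM after CO2. BAX in the VRC was at 16.5 to 29.9 CPM in room air and at 13.4 to 20.7 CPM after CO2, a log2 difference of -0.44. The sign at the VRC was thus opposite to that in the NTS for MSI2 and BAX, and the VRC differences themselves did not pass the adjusted threshold (edgeR adjusted p = 0.747 for both, with an unadjusted p of 0.0109 for BAX and 0.0664 for MSI2).

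Endothelial and flow-responsive genes were the next group, from a list of 22 of which 6 were tested. None passed, 4 had a lower mean and 2 a higher one, and the median log2 difference was -0.24. The 4 lower ones, ACVRL1, NOS3, HYAL2 and THBD, carry a symbol because the authors listed them as higher in the NTS at 3 h. They are counted again in that set below. ACVRL1, an endothelial receptor for bone morphogenetic proteins, stood at 16.9, 20.2, 21.2, 18.8, 14.4 and 16.9 CPM in room-air libraries 1 to 6 and at 7.43, 10.9, 13.0, 14.2, 10.2 and 13.9 CPM after CO2. The groups met closely without overlap, at 14.2 and 14.4 CPM, and the log2 difference was -0.64 (SE 0.16; edgeR adjusted p = 0.293). NOS3, the endothelial nitric oxide synthase, ranged from 20.8 to 34.3 CPM in room air and from 13.1 to 25.5 CPM after CO2, with overlap (log2 difference -0.48, SE 0.17; adjusted p = 0.527). HYAL2, a hyaluronidase anchored in the membrane, was at -0.29 and THBD, which turns thrombin towards protein C activation, at -0.19.

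ACKR1, the chemokine-binding receptor of venules, was at 3.42 to 6.64 CPM in room air, and after CO2 at 4.0 to 7.17 CPM in 5 libraries and 14.2 CPM in library 3. Without that library its log2 difference went from 0.33 to -0.01. The growth factors for vessels did not share a direction. VEGFA lay at 25.9 to 38.6 CPM in room air and 21.4 to 33.9 CPM after CO2 (log2 difference -0.35, SE 0.13; edgeR adjusted p = 0.565). VEGFB lay at 10.4 to 23.3 CPM and 18.9 to 32.9 CPM (0.60, SE 0.21; 0.527). VEGFC, a lymphatic growth factor, was at 0.43. No defining gene of pericytes and smooth muscle was tied to a row of the table.

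The genes the authors listed for the NTS at 24 h of CO2 were examined at 7 d in goats and libraries that share none with the 24 h comparison. Of 155 genes they listed as lower at 24 h, 147 were tested at 7 d. Their median log2 difference was -0.68 at 24 h and 0.14 at 7 d, and 129 of 147 (87.8%) had a higher mean after CO2 at 7 d, against 47.5% of all genes. The 24 h list came from the authors' likelihood ratio test. By edgeR's quasi-likelihood test in the 18 first-batch NTS libraries, its members NDUFA2 (adjusted p = 0.111), MAP1LC3A (0.112) and NDUFA13 (0.136) did not pass at 24 h. None of the 147 passed the threshold at 7 d by the quasi-likelihood test. Of these, 12 had an unadjusted p under 0.05, 8.16% against 8.02% of all genes. The latter count moved with room-air library 3: without it 67 of the 147 had an unadjusted p under 0.05 (45.6%, against 14.1% of all genes). In that fit 132 had a higher mean, the median was 0.21, and again none passed (lowest adjusted p = 0.149 in edgeR). Library 3 had the highest median deviation of the room-air libraries in this set, 0.24 against -0.24 to -0.04. The CO2 libraries ran from -0.11 in number 1 to 0.20. The groups thus overlapped, and room-air library 3 lay above every CO2 library. Leaving out room-air library 3 therefore raises the differences by itself, and for this set only that omission is given. Of the 25 genes listed as higher at 24 h, 22 were tested, with 8 higher and 14 lower at 7 d and a median of -0.09.

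**Figure D4:**
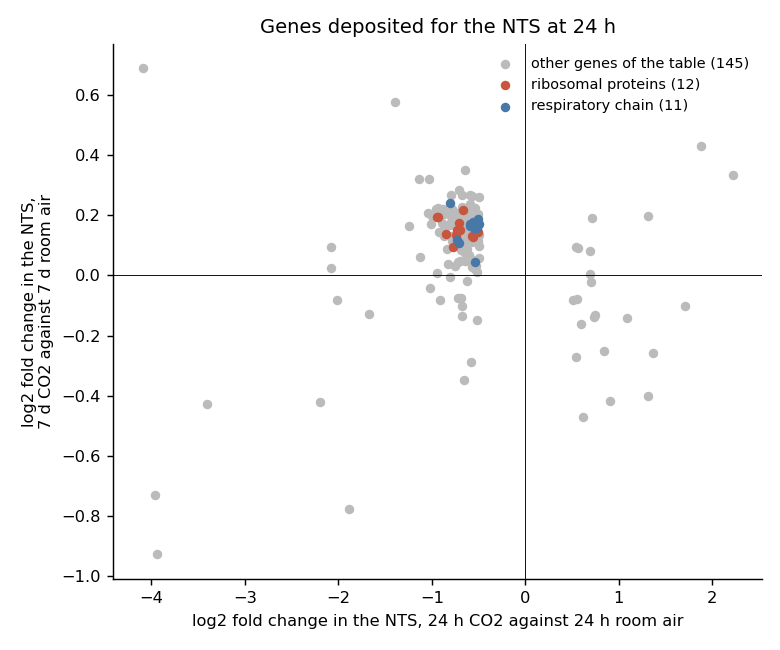
Each of 168 points is a gene of the authors' NTS table at 24 h, with its log2 fold change at 24 h (first batch) on the horizontal axis and at 7 d (second batch) on the vertical axis. Red marks 12 ribosomal protein genes and blue the 11 genes of the respiratory chain list, ATP5IF1 among them. Most genes lower at 24 h form a cluster above the horizontal zero line, with 7 d values near 0.14.

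Ribosomal protein and respiratory chain genes made up part of that set. All 7 tested proteins of the large ribosomal subunit had a higher mean after 7 d of CO2, with log2 differences of 0.09 to 0.17, as had all 5 of the small subunit (0.13 to 0.22) and all 11 genes of the nuclear-encoded respiratory chain list (0.05 to 0.24). That last list, called respiratory chain genes here, also holds ATP5IF1, the inhibitory factor of ATP synthase. None of these 23 passed, and 1, NDUFA2 of complex I, had an unadjusted p under 0.05. At the RTN of the 7 d goats all 7, all 5 and all 11 had a lower mean after CO2 (medians -0.30, -0.26 and -0.26). At the VRC 7 of 7, 4 of 5 and 5 of 11 had a lower mean (medians -0.12, -0.08 and 0.02). NDUFA2 stood at 186, 177, 212, 197, 197 and 212 CPM in room air and at 199.7, 233, 233, 214, 237 and 220.2 CPM after CO2, so the groups overlapped (log2 difference 0.18, SE 0.08; edgeR adjusted p = 0.618). RPL27 of the large subunit was at 148 to 207 CPM and 160.1 to 206 CPM (0.15, SE 0.10), and RPS15A of the small subunit at 29.0 to 45.0 CPM and 36.9 to 46.5 CPM (0.22, SE 0.11). In these genes room-air library 3 was high: it held the highest room-air value in NDUFA13, RPL27, RPL36, RPS15A and RPS28. Without it the log2 differences were 0.16 to 0.35 for the large subunit, 0.22 to 0.36 for the small subunit and 0.06 to 0.31 for the respiratory chain, none passed, and 6 of 7, 5 of 5 and 4 of 11 had an unadjusted p under 0.05. RPL36 went from 0.17 to 0.35 and RPS28 from 0.20 to 0.36. Leaving out a room-air library that is high in these genes raises the differences by itself. These list members carry a symbol because the authors had picked them at 24 h, and they are 7 of 45, 5 of 32 and 11 of 70 genes of the 3 lists.

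The mitochondrially encoded COX1 was not in step with the nuclear genes, at 222 to 452 CPM in room air and 222 to 412 CPM after CO2 (log2 difference -0.10, SE 0.18). The 3 linked genes of 14 on the list of the RNA polymerase II machinery, all from the set the authors listed as lower at 24 h, had a higher mean. At the RTN of the 7 d goats all 3 had a lower mean, and at the VRC 1 of 3. POLR2I, a small subunit of the enzyme, was at 45.2 to 57.1 CPM in room air and at 53.7 to 64.6 CPM after CO2 (0.26, SE 0.08; edgeR adjusted p = 0.448), with room-air library 3 inside the CO2 range.

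In a fit of all 30 NTS libraries the 7 d effect differed from the 24 h effect in 72 of 16047 genes (0.449%), 56 with a higher value at 7 d (0.349%) and 16 with a lower one (0.0997%). With the replicate number as a block 113 passed (0.704%), although the numbers do not mark the same goat across exposures. Time and batch cannot be told apart in this difference, and the genes the authors picked at 24 h are not independent of its 24 h side. Of the 147 genes lower at 24 h, 38 passed. They include 9 of 11 respiratory chain genes, 1 of 7 large and 1 of 5 small ribosomal proteins. NDUFA2 differed by 0.76 (SE 0.14; edgeR adjusted p = 0.0316), POLR2I by 0.86 (SE 0.16; 0.0316), RPL27 by 0.67 (SE 0.16; 0.0446) and RPS10 by 0.86 (SE 0.20; 0.0425). Of the first-batch NTS libraries, room air 5 and 6, 3 h 5 and 6 and 24 h CO2 5 lay on one side of the first principal component of that batch (28.9% of the variance). Without these 5, 126 genes passed, among them 78 of the 147, all 11 respiratory chain genes and 4 of each ribosomal list. The 5 were chosen after the data were seen, and leaving them out changes the 24 h effect and its spread by itself.

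The opposite sign was found for ACVRL1, which differed by -1.20 (SE 0.23; edgeR adjusted p = 0.0316), with 0.58 at 24 h and -0.64 at 7 d, and for TNFAIP1, an adaptor of a ubiquitin ligase, at -0.79 (0.0435). MAN2B1 differed by -0.86 (SE 0.18; 0.0318), DHX30 by -0.60 (0.0377) and BAX by 0.83 (0.0425). These 3 had 24 h effects of 0.08, 0.07 and -0.25. They and ENSCHIG00000001086 are on the authors' NTS list at 7 d, so they are not independent of the 7 d side of this difference. Without the 5 first-batch libraries MAN2B1 passed at -0.80 (0.00838) and ACVRL1 at -1.07 (0.0338). DHX30 at -0.52 (0.0602), TNFAIP1 at -0.70 (0.0602), BAX at 0.80 (0.066) and ENSCHIG00000001086 at 1.15 (0.0562) did not pass there.

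A further set of genes was uneven within the room-air group. The authors listed 95 genes as lower in the VRC at 24 h of CO2, and 94 were tested in the NTS at 7 d, in other goats and libraries, where 87 had a higher mean after CO2. Their median log2 difference was 0.38, and 24 had an unadjusted p under 0.05 (25.5%, against 8.02% of all genes), 22 of them higher. Without room-air library 3 the median was 0.50 and 33 had an unadjusted p under 0.05 (35.1%, against 14.1%). Library 3 was among the room-air libraries high in this set, so leaving it out raises the differences by itself. None passed the adjusted threshold with or without that library. Room-air libraries 1, 4 and 6 were low in this set and 2, 3 and 5 high, a split seen in the values and not given by any label. The median deviation of the set was -0.43, -0.61 and -0.75 in room-air libraries 1, 4 and 6 and 0.28, 0.24 and 0.18 in 2, 3 and 5. In the CO2 libraries it ran from -0.29 in number 2 to 0.65 in number 6. Libraries 1, 4 and 6 held the 3 lowest room-air values in 76 of the 94 genes (80.9%), against 12.6% of all genes tested and 32.1% of the 588 genes with a higher mean at an unadjusted p under 0.05. Of the 12 tested genes the authors listed as higher in the NTS at 7 d, 5 had the same split (41.7%), among them SAP30, MSI2 and GJA3. The part of this split in the differences between the exposure groups was not tested.

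**Figure D5:**
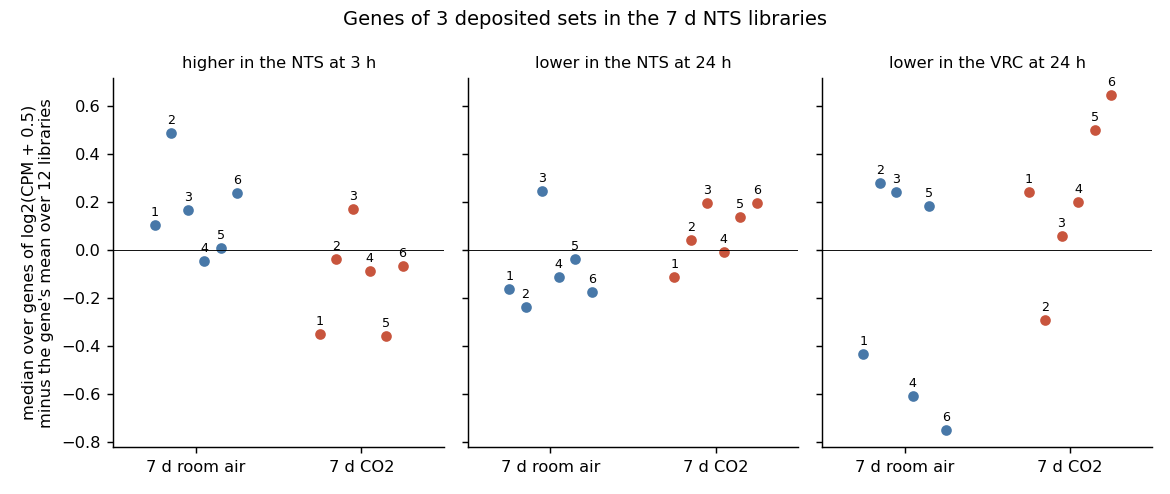
Each point is 1 NTS library of the 7 d groups, labelled with its number. The vertical axis is the median, over the genes of a set the authors listed at another time or site, of log2(CPM + 0.5) minus the gene's mean over the 12 libraries. In the right panel room-air libraries 1, 4 and 6 lie between -0.75 and -0.43 and the other 3 room-air libraries lie among the CO2 libraries.

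OLIG1 and OLIG2, the transcription factors of the oligodendrocyte lineage, show the split. OLIG1 stood at 11.6, 10.2 and 12.5 CPM in room-air libraries 1, 4 and 6, at 55.7, 77.6 and 58.9 CPM in 2, 3 and 5, and at 27.5 to 66.4 CPM after CO2. OLIG2 stood at 2.79 to 3.99 CPM, 14.3 to 18.2 CPM and 5.67 to 19.7 CPM in the same order. The exposure groups overlapped over most of their range, with log2 differences of 0.44 (SE 0.49) and 0.38 (SE 0.46). These 2 were the linked members of 14 oligodendrocyte markers. In the VRC, room-air libraries 1 to 6 had OLIG1 at 10.9, 27.1, 33.8, 22.5, 37.4 and 33.1 CPM, and in the RTN at 56.5, 51.7, 39.8, 20.0, 27.3 and 89.2 CPM, so libraries 1, 4 and 6 were not the 3 lowest at those sites.

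EGLN1, an oxygen-dependent enzyme that hydroxylates hypoxia-inducible factors ahead of their degradation, had the same shape. It stood at 22.6 to 23.5 CPM in room-air libraries 1, 4 and 6, at 47.2 to 52.9 CPM in 2, 3 and 5 and at 35.8 to 65.7 CPM after CO2 (log2 difference 0.56, SE 0.25; edgeR adjusted p = 0.618). DACT3, an inhibitor of Wnt signalling, was at 7.53 to 10.0 CPM, 24.2 to 28.2 CPM and 15.8 to 44.1 CPM. Of 15 Wnt pathway genes 4 were tested, and of 14 growth signalling genes 5. These 9 carry a symbol because the authors listed them as lower in the VRC at 24 h, the set described above, and all had a higher mean after CO2 (0.20 to 0.79 and 0.20 to 0.77 on the log2 scale), with none past the threshold. NRG2, a ligand of ErbB receptors, was at 3.27 to 4.49 CPM in room-air libraries 1, 4 and 6, at 9.62 to 12.6 CPM in the other 3 and at 6.32 to 18.3 CPM after CO2 (0.77, SE 0.32; adjusted p = 0.599). NR1D2, a repressor of the circadian clock, was at 16.9 to 20.8 CPM, 29.8 to 40.1 CPM and 27.0 to 50.8 CPM in that order (0.51; adjusted p = 0.618). Of the p53 targets BAX, PPM1D and PHLDA3 had positive differences (0.56, 0.41 and 0.51) and ACER2 a negative one (-0.09).

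Genes listed by the authors as higher in the NTS at 3 h of CO2 numbered 9, and 7 were tested at 7 d. At 7 d 6 of the 7 had a lower mean after CO2 and 1 a higher one, with a median of -0.21, and none passed. The 3 h list came from the authors' likelihood ratio test. By edgeR's quasi-likelihood test its members ACVRL1 (adjusted p = 0.071), HYAL2 (0.107) and NOS3 (0.382) did not pass at 3 h either. The 6 include TUBB6, a beta-tubulin, and ACVRL1, NOS3, HYAL2 and THBD, the same genes that were lower in the endothelial list above. Room-air and CO2 libraries overlapped for the set as a whole, with median deviations of -0.04 to 0.49 and -0.36 to 0.17. The table for 7 d, with 22 genes, and those for the other comparisons, with 2 to 180 of 17730 genes fitted, have 0 genes in common. Lists this short share few genes by chance, and the overlap was not tested.

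The ranges of the linked markers of other cell types overlapped between the 2 groups. The summed level of the 4 linked microglial and myeloid genes of 16 (AIF1, CD14, NCF4 and CD1D) was 69.2 to 143 CPM in room air and 78.5 to 109 CPM after CO2. The 3 linked neuronal genes of 23 (PRPH, GRP and NPFF) summed to 4.43 to 154 CPM and 3.84 to 95.4 CPM. PRPH, an intermediate filament of motor and sensory neurons, made most of that range: it stood at 57.3 to 122 CPM in room-air libraries 1, 3 and 4, at 70.2 and 76.9 CPM in CO2 libraries 3 and 4, and at 2.28 to 6.03 CPM in the rest. TTR, the transthyretin of the choroid plexus and the 1 linked gene of 7 in its list, was at 0.469 to 6.4 CPM in room air and at 0.776 to 23.0 CPM after CO2. The 2 linked blood genes of 10, HBQ1 and HEMGN, summed to 10.8 to 17.8 CPM and 10.4 to 17.2 CPM. No linked marker was at 0 in a library. None of the astrocyte, meningeal and pericyte genes was linked, and the part of such cells in the results was not tested.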

How the data were processed

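Bulk RNA from punches of the goat NTS was counted per gene in 12 libraries, 6 after 7 d of CO2 and 6 after 7 d of room air, with libraries of the other groups used where the text says so. RNA was extracted with a lipid tissue kit and DNase, and libraries were made with SMART-Seq v4 and Nextera XT and read as 100-bp pairs, per the labels' protocols. This kit does not mark strand, so reads of overlapping or antisense genes cannot be told apart. Per the submitters' processing notes, reads passed through fastp 0.24.0, STAR 2.7.10b and featureCounts 2.0.6, with edgeR 4.6 also named. The genome build is not given in the sources used here, nor is the annotation. The authors deposited raw counts per Ensembl gene (25144 rows) and gene tables of their CO2 comparisons, whose fold change and mean abundance columns are log2 values, per the file headers. In the same deposited tables the likelihood ratio is a score and the PValue and FDR columns hold p-values.

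A symbol was tied to a row where the deposited mean abundance equalled that of the authors' likelihood ratio fit, repeated over 90 libraries (17730 genes). All 342 entries matched exactly 1 gene, within 1e-09, and the 93 entries that are identifiers matched themselves. The 238 symbols so linked are all of genes the authors selected in some comparison, and other genes were tested under their identifiers. The members and the 29 gene lists were chosen with earlier results of these data known. Of the lists, 8 had no linked member and are not described.

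The tests ran in edgeR 4.0.16 under R 4.3.3. Genes were filtered by group with filterByExpr and scaled with TMM. The quasi-likelihood F test followed glmQLFit (robust=TRUE, legacy=FALSE), and Benjamini-Hochberg adjustment covered all genes tested, with a threshold of 0.05. CPM use TMM factors over 90 libraries. Gene set levels per library add 0.5 to the CPM before the log2. The procedure was tested on simulated data. Named are the gene past 0.05, all genes of the authors' NTS table at 7 d, the 12 genes of lowest p in each direction that have a symbol and average 1 CPM or more, the 5 of lowest p in each direction of the authors' NTS tables at 3 h and 24 h, and up to 4 members of a list; others were chosen after their values were seen. Alternatives were DESeq2 1.42.0, a surrogate variable from sva 3.50.0, quality-weighted voom from limma 3.58.1, RLE factors, other filters, the older dispersion estimate, more libraries in the fit, the replicate number as a block and each library left out. Same-numbered libraries of the 7 d goats correlated across sites in their residuals in every pair (lowest 0.105, medians 0.331 to 0.397), and on that basis the number was taken as the goat across sites, which the labels do not state. Libraries of a group are from separate goats.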

Additional observations from a re-analysis of the deposited data

Results flagged for a closer look

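In some groups 1 library lay far from the other 5. A gap to the next library beyond Dixon's critical share of the group's range was found 14 times in the 160 groups looked at (80 named genes in 2 groups), and chance gives about 1 in 20. Room-air library 3 was the high one for AIF1 (115 CPM, next 66.7), NDUFA13 (202 CPM, next 163), POLR2L (81.0 CPM, next 55.9), RPL36 (128 CPM, next 84.6), RPS28 (95.3 CPM, next 60.6) and ENSCHIG00000001086 (16.7 CPM, next 9.12). CO2 library 3 was the high one for TUBB6 (44.9 CPM, next 31.6), ACKR1 (14.2 CPM, next 7.17) and TTR (23.0 CPM, next 6.59). Room-air library 2 was high for POMK (52.3 CPM, next 35.9) and TTR (6.4 CPM, next 1.09), room-air library 4 for GRP (38.3 CPM, next 12.2) and CO2 library 4 for NPFF (2.35 CPM, next 1.03). SAP30 had a low value in CO2 library 2 (5.4 CPM, next 9.83).

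With the replicate number, taken as the goat, as a block, the NTS effect at 7 d differed from the VRC effect for MAN2B1 (-0.73), TRAPPC12 (-0.63), MSI2 (0.93), BAX (1.01), ARHGAP33 (0.78) and ENSCHIG00000001086 (0.995), and from the RTN effect for MAN2B1 (-0.76), TRAPPC12 (-0.66) and DHX30 (-0.64), all on the log2 scale. The 7 d effect in the NTS differed from the 24 h effect, with batch and time not separable, for ACVRL1 (-1.20), TNFAIP1 (-0.79), MAN2B1 (-0.86) and DHX30 (-0.60) on the lower side. On the higher side were ENSCHIG00000001086 (1.22), MYO1G (0.93), RPS10 (0.86), MAP1LC3A (0.86), POLR2I (0.86), ATP5IF1 (0.84), BAX (0.83), NDUFA2 (0.76), NDUFA13 (0.71), NDUFS5 (0.70) and RPL27 (0.67). Genes on the authors' NTS list at 7 d were selected on the 7 d NTS libraries, so they are not independent of that side of these differences.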

How the results depend on the processing

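The count of 1 gene in the NTS at 7 d stayed at 1 with RLE factors, no filter, a 1 CPM filter, the older dispersion estimate and a surrogate variable. It was 2 in a fit of all 30 NTS libraries, 39 in a fit of the 36 libraries of the 7 d groups, 70 with DESeq2, 2 with voom, 34 with the likelihood ratio test over 90 libraries, 0 with the replicate number as a block and 0 without room-air libraries 3 and 6, the last chosen after the data were seen. Leaving out 1 library gave 0 to 3 genes: 3 without room-air library 3, and 0 without room-air library 4 or 5 or CO2 library 2, 4, 5 or 6. Without CO2 library 3, and without room-air library 2, the 1 gene was not MAN2B1. Room-air and CO2 goats share only a number (median residual correlation of same-numbered libraries 0.0728; 1 of 6 best with its own number). MAN2B1 kept its direction in all 24 alternatives and the call in 14, with adjusted p from 5.38e-07 to 0.225; with the replicate block it was 0.133. With the replicate block 17 genes differed between NTS and VRC effects and 7 between NTS and RTN effects, against 0 without it, and DESeq2 gave 3 for the RTN. The 72 genes that differed between the 7 d and 24 h effects became 303 with DESeq2, 517 with voom, 45 without a filter, 113 with the replicate block and 126 without the 5 first-batch libraries, which were chosen after the data were seen.

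Of 80 named genes with a fit, 73 kept their direction in every alternative, and 18 came past the threshold in 1 or more. The sign turned, in genes far from the threshold, for GABRB2 (-0.0139 without room-air libraries 3 and 6, -0.0436 with a surrogate variable, -0.0882 to 0.119 with 1 library left out), CD1D (0.119 without room-air libraries 3 and 6, 0.0145 with voom, -0.217 to 0.0694), AIF1 (-0.0118 with a surrogate variable, -0.00385 to 0.287) and NCF4 (-0.00837 with voom, -0.0603 to 0.125). With 1 library left out the log2 difference ran from -0.0106 to 0.44 in ACKR1, -0.0375 to 0.133 in HBQ1 and -1.20 to 0.70 in GRP. The cause was not tested. With 6 goats a group and a median SE of 0.15, small differences are beyond what the 12 libraries can resolve.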
